A study of Mus musculus with 8 samples.

Results

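The genes described here are 10 that mark Kupffer cells, the resident macrophages of the liver, namely Clec4f, Timd4, Vsig4, Cd5l, Cd163, Adgre1, Csf1r, Mertk, Spic and Folr2. The rule that finds them uses names and no values, although the list was drawn up with earlier results of these data known: every non-control probe carrying one of these symbols, or an older one such as Emr1 for Adgre1, was taken. This gave 14 of the 41174 probes on the array and 10 of the 16558 named genes that were detected. Hepatic gene expression was compared between 4 wild-type male C57BL/6 mice administered standard chow (STD) and 4 administered an atherogenic diet (ATH) for 4 weeks. The atherogenic diet, labelled HFHC by the submitters, is rich in fat and cholesterol and also contains cholic acid, and it serves as a model of fatty liver disease with inflammation. The mice were 14 to 17 weeks old at the start, both groups were wild-type, and RNA from whole snap-frozen liver of each mouse was hybridised to 1 single-color array.

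Kupffer cells line the liver sinusoids, where they take up bacteria, aged red cells, dying cells and lipoproteins from the blood. Their survival depends on CSF1R, the receptor for the growth factors CSF1 and IL-34, and their identity is held by transcription factors and by signals from the neighbouring endothelial, stellate and parenchymal cells. Some of the 10 genes, such as Clec4f, are largely restricted to Kupffer cells within the mouse liver. Others, such as Adgre1, Csf1r and Mertk, are also expressed by macrophages that arise from blood monocytes.

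All values below are log2 processed signals from which the 75th percentile of the same array was subtracted, so that 0 is the level of that percentile. A probe's level says nothing about its level relative to another probe. Between 72.35% and 77.76% of spots were well above background on each array. The 4 STD arrays lay on 1 slide and were read in 1 scan, and the 4 ATH arrays on another slide in another scan, and in every comparison below an effect of slide and one of diet cannot be told apart. The 75th percentile itself was 0.45 higher on the log2 scale on the ATH arrays, and the 10 spike-in probes had a median 0.14 higher. Across all detected genes the median log2 fold change was -0.14 with this scaling, 0.31 without scaling and 0.17 with scaling to the spike-in probes.

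After the atherogenic diet, 9 of the 10 Kupffer cell genes had a higher mean signal and 1, Cd163, a lower one. The median log2 fold change of the 10 genes was 0.80, against -0.14 for all detected genes. Of the 14 probes, 1 rose at a false discovery rate of 1% (Cd5l) and a second at 5% (1 of the Spic probes), and none fell. Among all 31056 detected probes, limma called 0.528% at 1% in either direction and 0.193% as higher, and 8% at 5% in either direction and 3.06% as higher. For 7 of the 10 genes, and 9 of the 14 probes, every ATH array lay above every STD array, which was so for 6.01% of all detected probes. The unadjusted p-value was under 0.05 for 11 of the 14 probes and for 28.4% of all detected probes. The dimmer Adgre1 probe is in both counts, although it passed the detection filter through the ATH arrays alone. Its separation is thus partly set by that filter. In whole liver, a change in the number of Kupffer cells, a change in RNA per cell and expression by macrophages that arise from blood monocytes cannot be told apart.

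**Figure D1:**
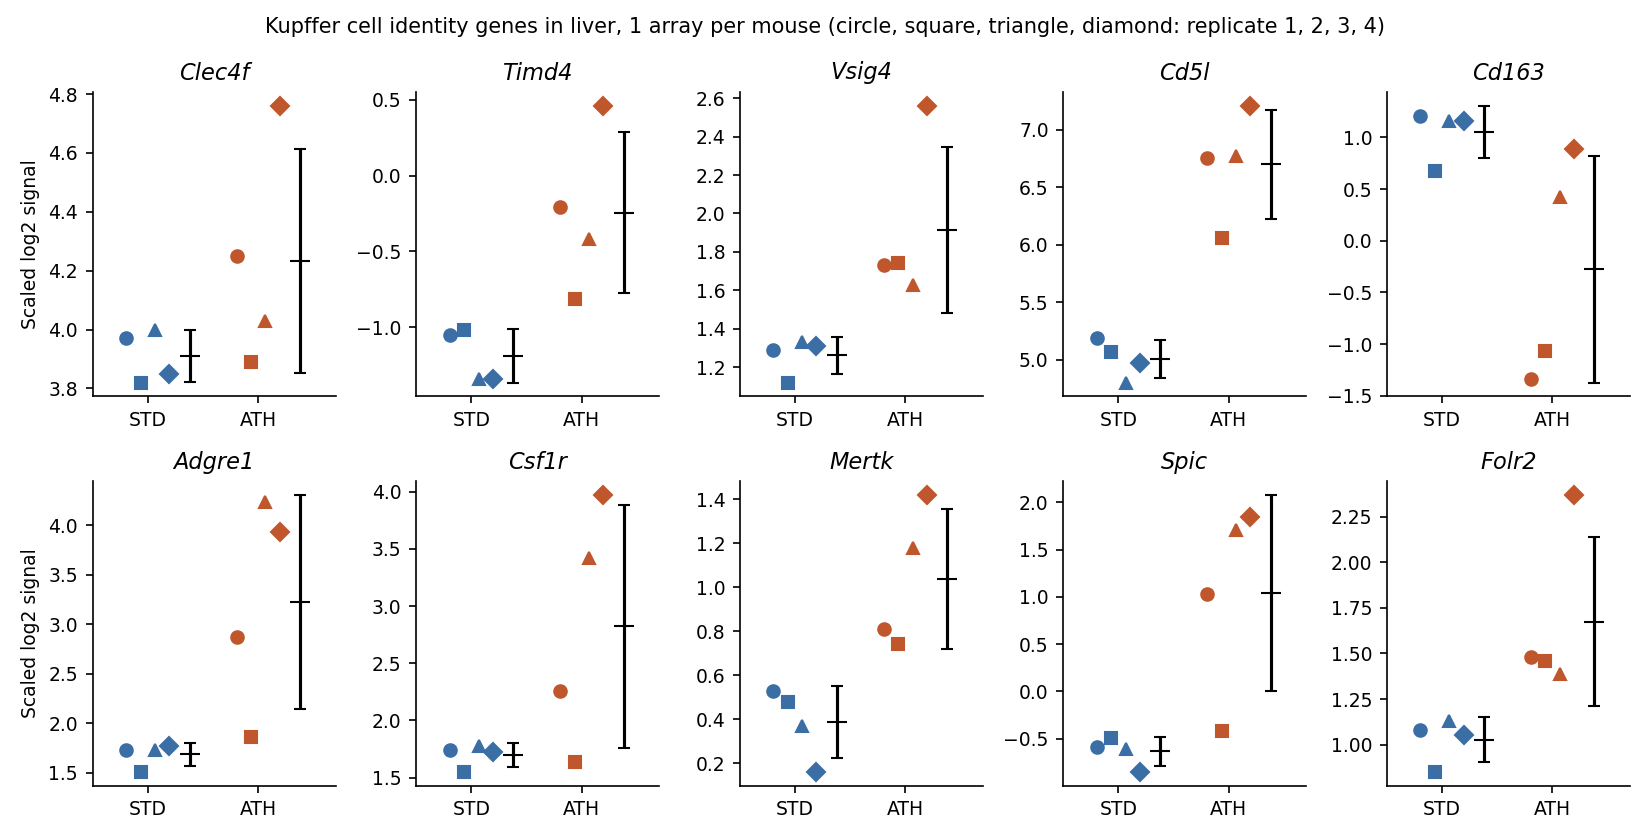
Scaled log2 signal of the 10 genes (y axis, a separate scale for each gene) on the 4 STD and 4 ATH arrays (x axis), with 1 point per mouse and 1 symbol per replicate number. Bars give the mean ± SD (n = 4), and for genes with several probes the brightest is plotted. The STD and ATH points do not overlap for 7 genes, and Cd163 has the lower ATH mean.

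Cd5l showed the clearest difference. It encodes a secreted glycoprotein of tissue macrophages, also called AIM, which binds lipids and circulating IgM and is controlled by the oxysterol-sensing receptors LXR. Its probe lies at chr3:87483753-87483812 on the array's mm7 assembly. The scaled signal was 5.19, 5.07, 4.80 and 4.97 on STD replicates 1 to 4 and 6.76, 6.06, 6.77 and 7.21 on ATH replicates 1 to 4. Every ATH array was above every STD array, and ATH replicate 2 was the lowest of the ATH arrays. The means were 5.01 ± 0.17 and 6.70 ± 0.47 (SD, n = 4 each), and Cd5l rose 3.23-fold (log2 fold change 1.69 ± 0.23 SE, limma adjusted p = 0.00899). With the replicate block, the adjusted p by limma was 0.0367 and the call at 1% was lost. Leaving out 1 array at a time gave log2 fold changes from 1.52 to 1.90 and adjusted p from 0.00179 to 0.0343, with the 1% call retained only without ATH replicate 2.

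The Cd5l promoter is shown because Cd5l was the 1 gene called at 1%. The sequence is from RefSeq (GRCm38.p6, chr3:87357631-87357930, plus strand), runs from 250 bases before to 50 bases after the gene's start, and has in capitals a match to GAGGAA, a core recognised by macrophage ETS-family factors such as PU.1 and SPI-C, read here on the opposite strand as TTCCTC. The match begins 66 bases before the start.
Cd5l: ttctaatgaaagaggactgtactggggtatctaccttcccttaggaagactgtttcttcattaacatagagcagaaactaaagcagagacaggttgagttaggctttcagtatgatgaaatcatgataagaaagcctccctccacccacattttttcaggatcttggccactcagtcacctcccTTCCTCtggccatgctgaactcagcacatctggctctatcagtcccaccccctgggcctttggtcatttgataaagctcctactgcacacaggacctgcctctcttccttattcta
Both strands were searched, and 28.3% of 32851 mouse promoters of this length hold GAGGAA. Of the 9 promoters listed for 8 of the Kupffer cell genes, 2 held it (Cd5l and Vsig4), and none held TATAAA, which 13.6% of all promoters hold. A match describes the letters and is not a measured binding site.

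Cd163, a scavenger receptor that clears haemoglobin bound to haptoglobin, was the 1 gene with a lower mean after the atherogenic diet. Its probe lies at chr6:124312766-124312825 (mm7). The scaled signal was 1.21, 0.67, 1.16 and 1.16 on STD replicates 1 to 4 and -1.34, -1.07, 0.42 and 0.89 on ATH replicates 1 to 4. ATH replicates 1, 2 and 3 were below every STD array, whereas ATH replicate 4 lay within the STD range. The log2 fold change was -1.33 ± 0.47 SE (95% interval -2.40 to -0.26), and the difference did not pass the test (limma adjusted p = 0.109). Leaving out 1 array at a time kept the sign, with log2 fold changes from -1.72 to -0.97. The sign was also the same under each scaling. The Cd163 promoter, which held neither motif, is shown as that of the gene whose mean went the other way (RefSeq, GRCm38.p6, chr6:124304401-124304700, plus strand).
Cd163: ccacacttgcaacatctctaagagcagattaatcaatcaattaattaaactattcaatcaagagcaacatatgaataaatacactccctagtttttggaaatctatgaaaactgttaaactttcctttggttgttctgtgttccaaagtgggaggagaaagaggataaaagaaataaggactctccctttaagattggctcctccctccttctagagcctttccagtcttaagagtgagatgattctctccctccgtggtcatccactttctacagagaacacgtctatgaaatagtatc

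Vsig4 and Folr2 followed each other closely from array to array. Vsig4 is the complement receptor CRIg, with which Kupffer cells capture C3b-coated bacteria, and Folr2 encodes folate receptor beta of tissue macrophages. Their probes lie at chrX:91575173-91575232 and chr7:97886503-97886562 (mm7). For Vsig4 the scaled signal was 1.29, 1.12, 1.33 and 1.31 on the STD arrays and 1.73, 1.74, 1.63 and 2.56 on the ATH arrays, in order of replicate. For Folr2 it was 1.08, 0.85, 1.13 and 1.05 on the STD arrays and 1.48, 1.46, 1.39 and 2.37 on the ATH arrays. In both genes every ATH array was above every STD array, the first 3 ATH replicates lay close together, and replicate 4 stood well above them. Vsig4 had a log2 fold change of 0.65 ± 0.21 SE and Folr2 one of 0.65 ± 0.22 SE, and neither passed at 5% (limma adjusted p = 0.0834 and 0.0971).

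The promoters of this pair are shown because of their like profiles, from RefSeq GRCm38.p6 (Vsig4 at chrX:96293389-96293688 and the outermost listed start of Folr2 at chr7:101857141-101857440, both on the minus strand and printed in the direction of transcription). Capitals mark GAGGAA, which began 155 and 53 bases before the Vsig4 start and was not found in the Folr2 window.
Vsig4: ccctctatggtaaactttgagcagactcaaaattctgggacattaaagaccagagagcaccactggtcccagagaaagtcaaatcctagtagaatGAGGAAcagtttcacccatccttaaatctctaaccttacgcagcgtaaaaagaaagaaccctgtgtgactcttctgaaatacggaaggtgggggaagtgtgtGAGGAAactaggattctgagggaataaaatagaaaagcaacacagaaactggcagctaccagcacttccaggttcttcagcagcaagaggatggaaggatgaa
Folr2: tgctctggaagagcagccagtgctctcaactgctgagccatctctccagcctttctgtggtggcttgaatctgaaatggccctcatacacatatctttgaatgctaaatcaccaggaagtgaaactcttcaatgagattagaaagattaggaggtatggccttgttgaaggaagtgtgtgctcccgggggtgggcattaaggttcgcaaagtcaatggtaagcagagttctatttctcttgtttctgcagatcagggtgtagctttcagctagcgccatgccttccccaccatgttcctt

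Timd4 and Mertk both serve the uptake of dying cells. Timd4 encodes TIM-4, which binds phosphatidylserine directly and marks long-lived resident Kupffer cells, and Mertk encodes a receptor tyrosine kinase that binds phosphatidylserine through the bridging proteins GAS6 and protein S. Timd4 (probe at chr11:46800424-46800483, mm7) had scaled signals of -1.05, -1.02, -1.34 and -1.34 on the STD arrays and -0.21, -0.81, -0.42 and 0.46 on the ATH arrays. Mertk (chr2:128542984-128543043, mm7) had 0.53, 0.48, 0.37 and 0.16 on the STD arrays and 0.81, 0.74, 1.18 and 1.42 on the ATH arrays. Neither gene overlapped between the diets, with ATH replicate 2 nearest to the STD arrays in both. The log2 fold change of Timd4 was 0.94 ± 0.25 SE (limma adjusted p = 0.0528) and that of Mertk 0.65 ± 0.18 SE (limma adjusted p = 0.0564), just outside the 5% threshold.

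Clec4f, a C-type lectin that binds galactose-type glycans and is the marker most restricted to mouse Kupffer cells, differed least among the 10 genes. Its probe lies at chr6:83670672-83670730 (mm7). The scaled signal was 3.97, 3.82, 4.00 and 3.85 on the STD arrays and 4.25, 3.89, 4.03 and 4.76 on the ATH arrays. ATH replicate 2 lay within the STD range, ATH replicate 3 was just above it, and replicate 4 was the highest. The means were 3.91 ± 0.09 and 4.23 ± 0.38 (SD, n = 4 each). The log2 fold change was 0.32 ± 0.19 SE, with a 95% interval from -0.11 to 0.75, and did not pass the test (limma adjusted p = 0.29).

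Spic encodes SPI-C, a transcription factor related to PU.1 that is induced by haem and is needed for iron-recycling macrophages. Its 2 probes lie close together on chromosome 10. The brighter probe (chr10:88234176-88234235, mm7) had scaled signals of -0.59, -0.49, -0.61 and -0.85 on the STD arrays and 1.03, -0.42, 1.71 and 1.84 on the ATH arrays. The other (chr10:88234289-88234348) had -2.56, -2.89, -2.72 and -2.93 on the STD arrays and -0.67, -2.10, 0.03 and 0.16 on the ATH arrays. Both probes separated the diets, and in both ATH replicate 2 lay close to the STD arrays while the other 3 were far above them. The second probe rose 4.37-fold (log2 fold change 2.13 ± 0.44 SE, limma adjusted p = 0.0299, or 1.49 on the log2 scale with normexp background correction), and the block left it just inside 5% (limma adjusted p = 0.0499). Leaving out 1 array at a time, its adjusted p ranged from 0.00161 to 0.0748, and the 5% call was kept only without ATH replicate 2. The brighter probe had a log2 fold change of 1.68 ± 0.44 SE and an adjusted p by limma of 0.0518.

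Adgre1 encodes F4/80, the adhesion receptor by which mouse macrophages are commonly recognised. Its brighter probe (chr17:55686649-55686708, mm7) had scaled signals of 1.73, 1.51, 1.73 and 1.77 on the STD arrays and 2.87, 1.86, 4.23 and 3.93 on the ATH arrays. The ATH arrays ranged from just above the STD arrays (replicate 2) to far above them (replicates 3 and 4). The log2 fold change was 1.54 ± 0.46 SE, with a 95% interval from 0.50 to 2.58, and the adjusted p by limma was 0.0702. The second probe (chr17:55613754-55613813) was not well above background on any STD array and was detected on all 4 ATH arrays. The ATH mean of that probe, -3.89 ± 1.33 (SD, n = 4), was 2.98-fold higher than the STD bound of -5.46. The bound takes on each array the higher of the probe's own signal and the lowest signal well above background of any probe. The limma adjusted p from the probe's own signals was 0.0899. With normexp background correction the log2 fold change of this dim probe was 0.33.

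Csf1r is measured by 3 probes on chromosome 18, and they did not move alike. The brightest (chr18:61520169-61520228, mm7) had scaled signals of 1.74, 1.55, 1.78 and 1.72 on the STD arrays and 2.26, 1.64, 3.42 and 3.97 on the ATH arrays. The second (chr18:61519183-61519543) had -0.07, -0.88, -0.12 and -0.16 on the STD arrays and 0.08, -0.80, 1.72 and 2.20 on the ATH arrays. In both, ATH replicate 2 lay within the STD range and replicates 3 and 4 were well above it. The log2 fold changes were 1.12 ± 0.45 SE and 1.11 ± 0.60 SE (limma adjusted p = 0.142 and 0.258). The third probe (chr18:61499207-61499266) differed little, with -2.86, -3.09, -2.0 and -2.68 on the STD arrays and -3.06, -2.70, -2.78 and -2.76 on the ATH arrays. Its log2 fold change was -0.17 ± 0.23 SE (limma adjusted p = 0.66), and its sign turned without scaling (0.28), with spike-in scaling (0.15) and without STD replicate 3 (0.05).

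**Figure D2:**
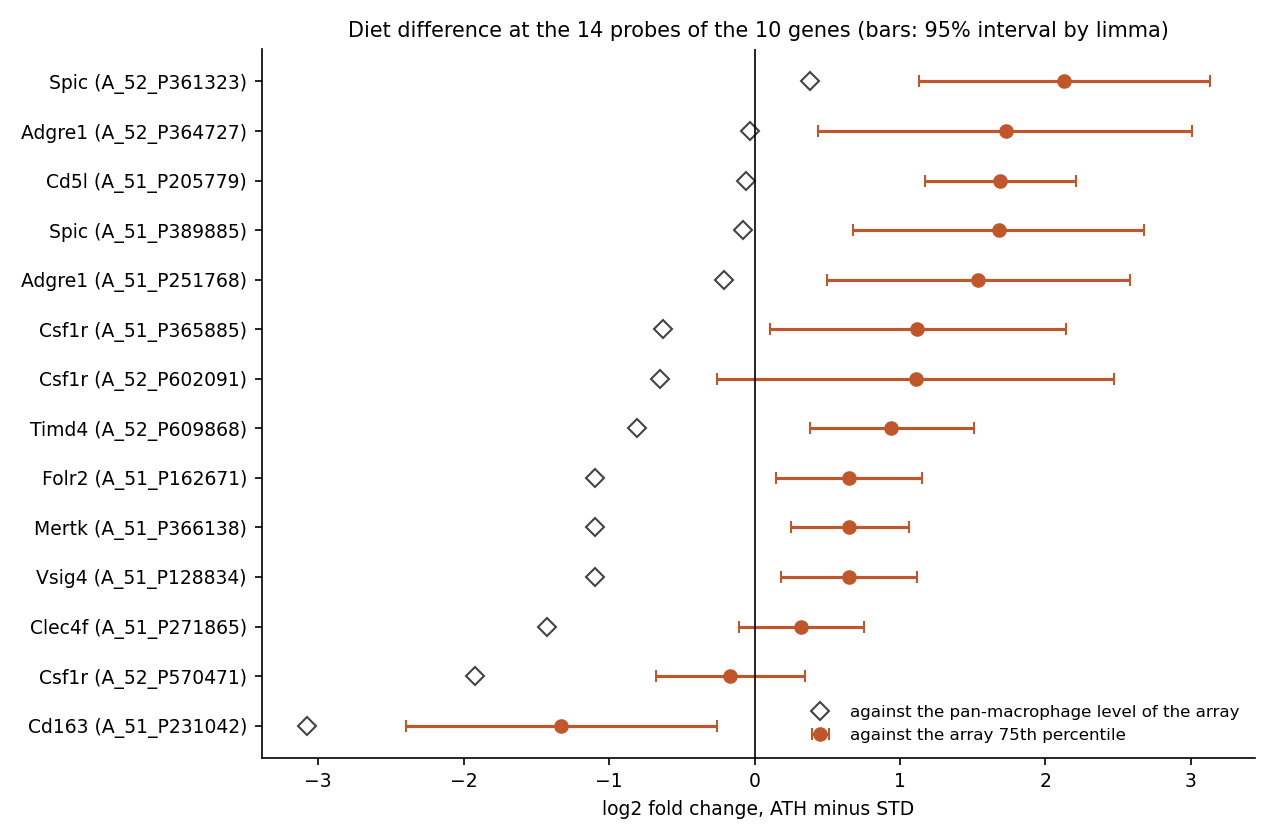
Log2 fold change, ATH minus STD (x axis), at each of the 14 probes (y axis). Filled points with bars are values scaled to the array's 75th percentile with 95% intervals by limma, and open diamonds are the same differences after subtraction of the array's pan-macrophage level. The filled points run from -1.33 (Cd163) to 2.13 (Spic), and 13 of the 14 diamonds lie below 0.

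Ordered by log2 fold change of the brightest probe, Cd5l (1.69), Spic (1.68) and Adgre1 (1.54) came first, then Csf1r (1.12) and Timd4 (0.94), then Vsig4, Mertk and Folr2 at 0.65 each, then Clec4f (0.32) and Cd163 (-1.33). The 95% intervals of neighbours overlapped in this order, except those of Clec4f (-0.11 to 0.75) and Cd163 (-2.40 to -0.26). Differences between genes were not tested.

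By the brightest probe, the 4 ATH livers differed more among themselves than the 4 STD livers in each of the 10 genes. The dimmest Csf1r probe went the other way, with an SD of 0.47 among STD and 0.16 among ATH arrays. The median SD over the genes was 0.14 among STD arrays and 0.50 among ATH arrays, against medians of 0.21 and 0.28 over all detected probes. ATH replicate 4 was the highest ATH array in 9 genes and ATH replicate 3 in the other, Adgre1. ATH replicate 2 was the lowest in 7 genes, ATH replicate 3 in Vsig4 and Folr2, and ATH replicate 1 in Cd163.

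The genes did not order ATH replicates 1 and 3 alike. From replicate 1 to replicate 3 the scaled signal differed by 1.76 for Cd163, 1.36 for Adgre1, 1.16 for Csf1r, 0.68 for Spic and 0.37 for Mertk. Over the same pair of livers it differed by 0.01 for Cd5l, -0.09 for Folr2, -0.10 for Vsig4, -0.21 for Timd4 and -0.22 for Clec4f. The pan-macrophage level, the mean scaled signal of 18 genes expressed by macrophages, such as Cd68, Tyrobp and Lyz2, was 1.13 higher in replicate 3. Some of the 18, such as Ptprc, Cd53 and Ctsb, are not restricted to macrophages or other myeloid cells. The level is therefore not a measure of macrophages alone. All these differences are between single arrays and have no replicate check.

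**Figure D3:**
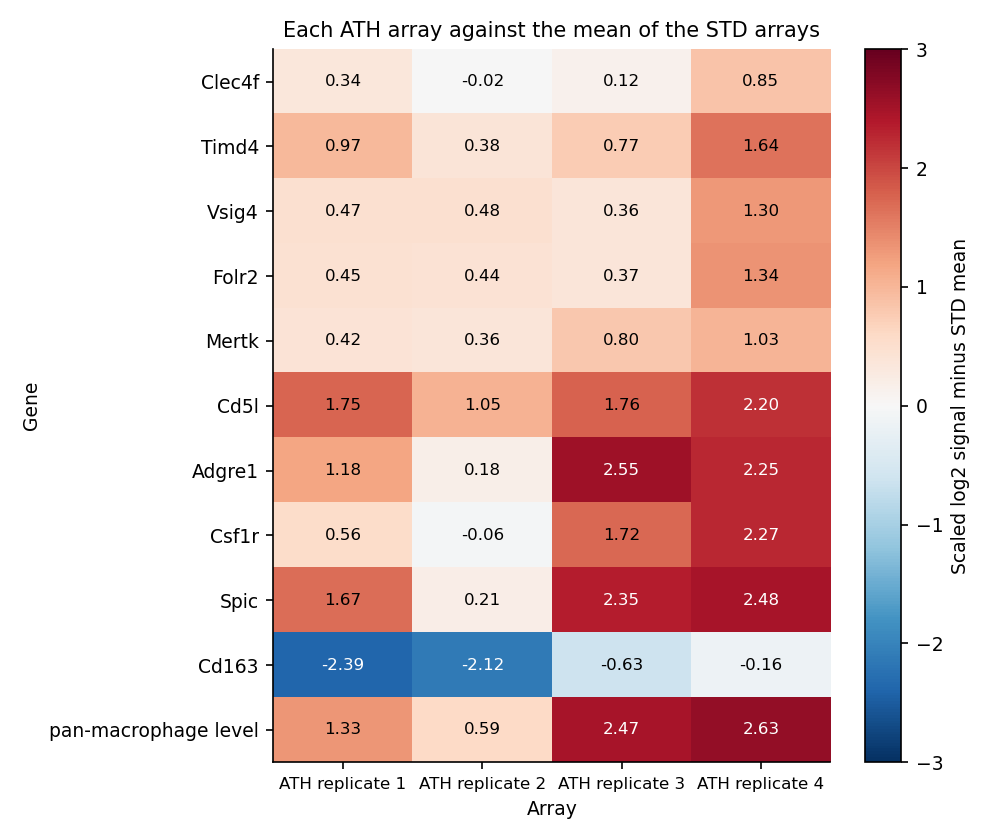
Difference of each ATH array (x axis) from the mean of the 4 STD arrays in scaled log2 signal (color and printed value), for the 10 genes and the pan-macrophage level (y axis). ATH replicate 2 has the smallest pan-macrophage difference (0.59) and replicate 4 the largest (2.63), and Cd163 is below 0 on each array, from -2.39 on replicate 1 to -0.16 on replicate 4.

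The Kupffer cell genes were next set against the pan-macrophage level of the same liver. The pan-macrophage level was 0.55, 0.42, 0.64 and 0.53 on the STD arrays and 1.87, 1.12, 3.0 and 3.17 on the ATH arrays, a difference of 1.75 between the means. After subtracting it, each of the 10 genes had a lower ATH mean, with a median difference of -0.96. The median over all detected genes was -1.89, since the subtraction lowers any gene that moved less than the pan-macrophage level. Against it, every ATH array was below every STD array for 6 of the 10 genes (Clec4f, Vsig4, Cd163, Csf1r, Mertk and Folr2), compared with 77.4% of all detected probes. Limma called 2 of the 14 probes lower at 1% and 3 at 5%, against 83.2% and 92.3% of all detected probes, so the members' share was below the background. In this fit the spread of the subtracted level, which all probes share, gave each member probe the same SE of 0.58. That spread was treated as known, so these p-values do not follow each probe's own spread and can be too small or too large. The brightest Csf1r probe had SDs of 0.04 (STD) and 0.19 (ATH) on this scale and no overlap, yet a limma adjusted p of 0.285.

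Relative to the pan-macrophage level, Cd163 had the largest negative difference of the 10 genes. Its values were 0.66, 0.25, 0.52 and 0.63 on the STD arrays and -3.21, -2.19, -2.59 and -2.27 on the ATH arrays, a log2 difference of -3.08 (limma adjusted p = 1.09e-05). The SD among the 4 ATH livers was 0.46 on this scale and 1.10 on the array scale. Clec4f followed with 3.42, 3.40, 3.36 and 3.32 on the STD arrays and 2.38, 2.77, 1.02 and 1.59 on the ATH arrays, a difference of -1.43 (limma adjusted p = 0.0154). It did not pass at 5% without ATH replicate 3 (-1.13, limma adjusted p = 0.0699) or with Adgre1 as the reference (-1.22, limma adjusted p = 0.0611). The dimmest Csf1r probe was the remaining one called (-1.92, limma adjusted p = 0.0019). It passed 5% but not 1% without STD replicate 3 (limma adjusted p = 0.0144), without ATH replicate 3 (0.0113) and against Adgre1 (0.014). On this scale the median of all detected genes was -1.89, and 83.2% of detected probes were called lower at 1%. Cd163 lay below that median, Clec4f above it, and the Csf1r probe, which differed little by diet (-0.17), close to it.

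At the other end, Cd5l, Spic and Adgre1 moved by about as much as the pan-macrophage level. Relative to it, Cd5l was at 4.64, 4.64, 4.15 and 4.44 on the STD arrays and 4.89, 4.94, 3.77 and 4.04 on the ATH arrays, a difference of -0.06. Adgre1 was at 1.18, 1.09, 1.08 and 1.23 on the STD arrays and 0.99, 0.73, 1.23 and 0.77 on the ATH arrays, a difference of -0.21. For Spic the difference at the brighter probe was -0.08. In each of these 3 genes the diets overlapped on this scale.

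The genes around the 10 are given by list, each against the detected genes as a whole, of which 670 of 16558 rose at 5% and 878 fell (342 and 456 with the replicate block). Where the block moves a count by over 1.5 times it is given too. Small negative values in these lists, down to -0.37, turned positive without scaling.

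Among 20 other genes enriched in Kupffer cells, 18 had a higher and 2 a lower mean after the atherogenic diet, and 7 rose at 5% (4 with the block), with none called at 1% and none lower. Their median log2 fold change was 1.08. Marco, a scavenger receptor for bacteria and particles, rose by 3.43 ± 0.76 SE on the log2 scale (limma adjusted p = 0.0353), and Il18bp, a secreted inhibitor of interleukin-18, rose by 1.81 ± 0.25 SE (limma adjusted p = 0.0104). The genes with the lowest values were C6, a complement component (-0.16, limma adjusted p = 0.525), and Fcna, a ficolin of the lectin complement pathway (-0.25, limma adjusted p = 0.383). Il18bp was also the gene whose profile over the 8 arrays was most like that of Cd5l, as described at the end.

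The next list holds 20 genes of ligands, receptors and niche signals, with intracellular factors of their pathways such as Smad4 and Rbpj. Of these, 15 had a higher mean, 3 rose at 5% (1 with the block) and none fell, with a median log2 fold change of 0.34. Axl, a receptor kinase related to Mertk, rose by 1.60 ± 0.35 SE (limma adjusted p = 0.0332). Csf1, a ligand of CSF1R, rose by 0.97 (limma adjusted p = 0.0439, or 0.0652 with the block), whereas the other ligand, Il34, had 0.89 and did not pass (limma adjusted p = 0.0618). Tgfb1 had 1.22 (limma adjusted p = 0.051). The MERTK ligand Gas6 had -0.09 (limma adjusted p = 0.886), and the lowest values were those of Bmp10, a ligand of endothelial and Kupffer cell ALK1 (-0.36), and Notch1 (-0.22).

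Of 14 macrophage transcription factors, 4 rose at 5% (1, Zeb2, with the block) and none fell, with a median log2 fold change of 0.38. These were Irf8 (1.72), a factor of monocyte development, Tfec (1.39), Zeb2 (1.27), which maintains tissue macrophage identity, and Klf4 (0.65), with adjusted p by limma from 0.014 to 0.0468. Nr1h3, which encodes LXR alpha, had -0.18 (limma adjusted p = 0.336), and Spi1, which encodes PU.1, had 1.19 (limma adjusted p = 0.153, or 0.24 on the log2 scale with normexp correction) and was well above background on 2 of 4 STD arrays. The lowest values were those of Bach1, a haem-sensing repressor of Spic (-0.37), and Runx1 (-0.22).

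Genes of macrophages in general had larger log2 fold changes on median than the 0.80 of the Kupffer cell genes. All 18 pan-macrophage genes had a higher mean, 14 rose at 5% (4 with the block), and the median log2 fold change was 1.92, with Cd14 at 2.56 and Itgb2 at 2.38 the highest and Lcp1 at 0.28 and Ctsb at 0.14 the lowest. Of 13 detected genes of monocytes and recruited macrophages, 11 had a higher mean and 5 rose, or 3 with the block (median 1.96), among them Itgax (3.91, limma adjusted p = 0.0288) and Ccl2 (3.37, limma adjusted p = 0.0263), while Cx3cr1 had -0.30 and Clec12a, well above background on 3 of 4 ATH arrays, -0.11. Of 10 genes of lipid-associated macrophages, 7 rose at 5% with and without the block, and the median was 2.54, or 2.05 with genes below background set to their bound. Gpnmb and Mmp12 were not well above background on any STD array. On the ATH arrays they were 32.4-fold and 3.05-fold higher than their STD bounds, a fold that depends on the background correction. The limma adjusted p-values, 0.00677 and 0.00699, came from the probes' own signals and not from the bounds. Both genes passed the detection filter through the ATH arrays alone and are among the 7 that rose, so that count rests partly on the filter. Cd9 rose by 1.11, and Fabp5, well above background on 3 STD and 2 ATH arrays, had -0.37. With normexp correction the log2 fold change was 0.49 for Mmp12, 3.0 for Gpnmb and 2.71 for Itgax. Summed over each list, the linear scaled signal went from 147 to 154 on the STD arrays to between 198 and 665 on the ATH arrays for pan-macrophage genes, and from between 7.81 and 8.72 to between 12.2 and 65.6 for monocyte genes. Such sums are set mostly by the brightest probes, for example Ctsb and Lyz2 of the pan-macrophage genes (STD means 6.37 and 5.15). The part of these lists in the Kupffer cell gene values was not tested.

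**Figure D4:**
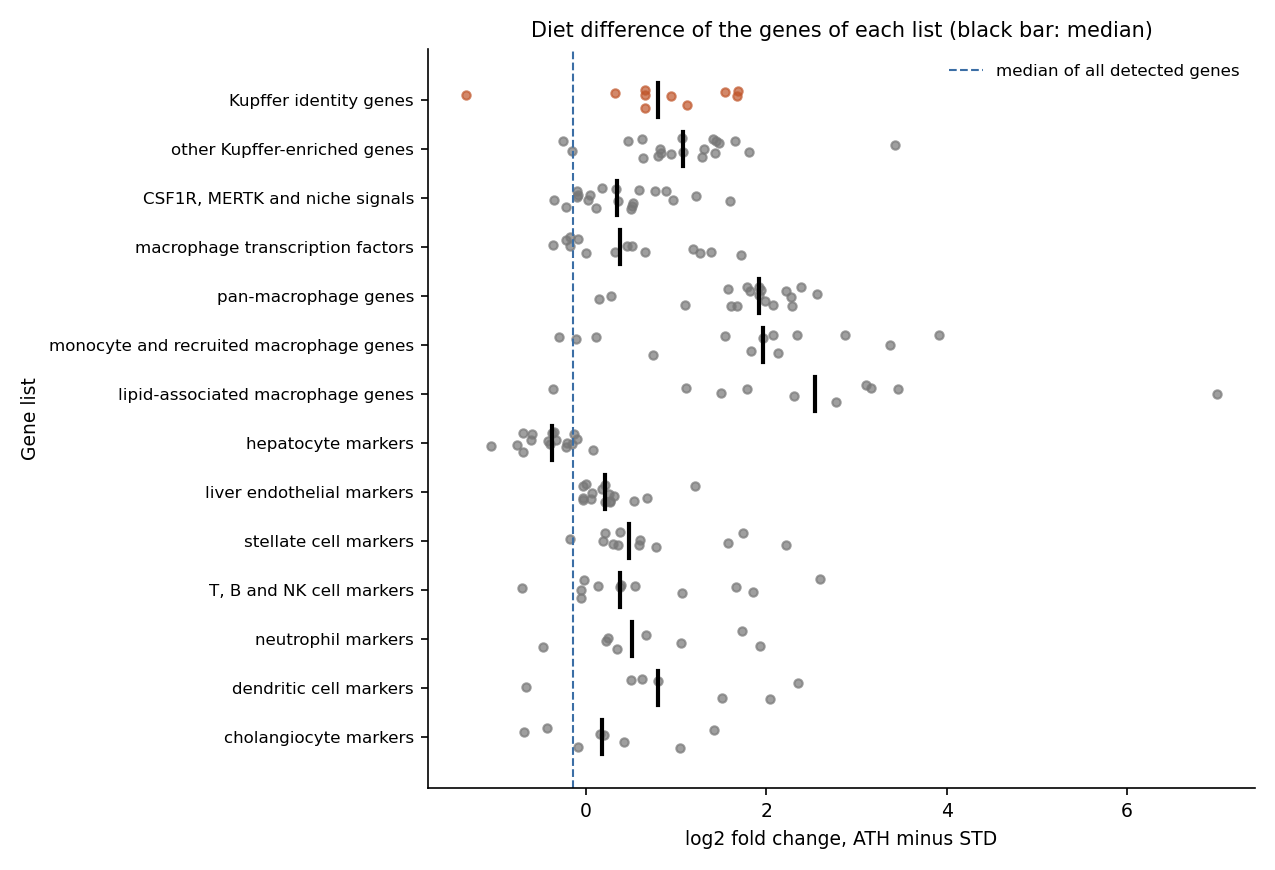
Log2 fold change, ATH minus STD (x axis), of each detected gene (points) of the Kupffer cell genes and 13 other lists (y axis). Black bars are list medians and the dashed line is the median of all detected genes (-0.14). The Kupffer cell genes have a median of 0.80, between the niche signals (0.34) and the pan-macrophage genes (1.92).

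The tissue label is liver, and the detected hepatocyte markers were well above background on all 8 arrays. Of 17 detected, 16 had a lower mean and 5 fell at 5% (1 with the block), among them Tat (-1.05) and Arg1 (-0.77), with Apoa1 at -0.10 and Apob at 0.08. Their median was -0.38, but it was 0.03 with quantile normalization and 0.07 without scaling, and the summed signal lay between 5776 and 6146 on the STD arrays and between 3986 and 5236 on the ATH arrays. Of 16 liver endothelial markers 2 rose (Lyve1 at 1.21 and, without the block only, Fcgr2b at 0.68, median 0.21), with Tek and Tie1 at -0.03. Of 12 stellate cell markers 2 rose (1 with the block), among them Col3a1 (1.74), with a median of 0.48, while Col1a1 had 2.22 without passing (limma adjusted p = 0.0909), Reln 0.19 and Hand2 -0.18.

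No T, B or NK cell marker passed at 5% among 12 (median 0.38), with Cd8a at 2.60 (limma adjusted p = 0.0873, 1.18 with normexp correction), Nkg7 at 1.85, Ncr1 at -0.05 and Cd3e at -0.71. None passed among 8 detected neutrophil markers (median 0.51), with S100a8 at 1.93 (1.19 with normexp correction), S100a9 at 1.73, Ltf at 0.22 and Cxcr2 at -0.48, although with the replicate block S100a8 and S100a9 did (limma adjusted p = 0.0271 and 0.0301). Of 7 detected dendritic cell markers, 3 rose, among them Cd83 (2.35) and Siglech, which was well above background on 1 STD array and 4 ATH arrays and had 2.04, or 0.19 with normexp correction, and Xcr1 fell by 0.67 on the log2 scale, while Zbtb46 had 0.50 (median 0.80). With the block Cd83 alone passed. Of 8 cholangiocyte markers 1 rose, Sox9 (1.04, list median 0.18), while Krt23 had 1.42 and Prom1 -0.69. The part of these cell types in the Kupffer cell gene values was not tested.

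For the 3 Kupffer cell genes with the largest fold change, the most similar detected genes were found by the root mean square difference in scaled log2 signal over the 8 arrays, after centring each gene on its own mean, among 16548 genes outside the 10. For Cd5l these were Il18bp (0.089) and Niban1 (0.121), for Spic they were Spn (0.140), a leukocyte sialoglycoprotein, and Icosl (0.146), a costimulatory ligand, and for Adgre1 they were Nrros (0.122), a myeloid protein that anchors latent TGF-beta, and Ier3 (0.13). The 8 arrays share the split by diet and slide, so likeness over them is a description only.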

How the data were processed

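Total RNA from liver was hybridised by the authors to Agilent whole mouse genome arrays with Cy3, 1 array per mouse, with 4 mice per diet. The deposited array files hold the spot intensity values of Agilent Feature Extraction 9.5 under 1-color defaults, background-subtracted and detrended (gProcessedSignal). The authors also deposited a log2 table made in GeneSpring. Apart from 1 offset for each array and 1 for each probe, it is the log2 of the same signal at 100% of 31042 probes within 0.001, and it was used as an alternative. The members and lists were chosen with earlier results of these data known.

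Of 43379 non-control spots, outlier-flagged ones were left out and spots of a probe averaged, giving 41174 probes, with 25 values missing where every spot was flagged (none in the members). The log2 signal minus the array's 75th percentile was used, and 31056 probes detected on at least 3 of 4 arrays of a diet were tested. Genes were named by accession for 22951 probes, by symbol for 6659, by synonym for 3109 and by the file's own name for 8455. The probe with the highest mean represents a gene, and members are given with every probe. Positions of probes are given on mm7, as in the array files, and their exon or UTR context was not analysed here. Promoters are from RefSeq (GRCm38.p6).

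Diet was tested with limma 3.58.1 in R 4.3.3 (eBayes after lmFit, two-sided), with Benjamini-Hochberg adjustment over all detected probes. On simulated arrays with 200 probes shifted by 2 on the log2 scale, this fit recovered 79% of them with 0 false calls. The simulation gave each probe the same SD in both diets, so it does not cover probes that vary more under one diet. Summaries used Python 3.11.15, numpy 2.4.6, pandas 2.3.3 and matplotlib 3.10.9. Each mouse is 1 sample, and the number of arrays limits the precision. Replicate numbers come from the labels and match positions on the slides. Deviations from the diet means of equal-numbered arrays correlated at 0.1001, 0.2294, 0.1816 and 0.1763, each over 0.1. A fit with equal numbers as a replicate block was therefore made as an alternative. The main fit has no block, and its p-values are the ones given unless another setting is named. Named genes are the 10 members, the 2 highest and 2 lowest of each other list by log2 fold change, and the 2 genes most like each of the 3 members of largest fold change. One gene that the rule names is not reported here. Csf1, Il34, Gas6, Nr1h3, Spi1, Zeb2, Klf4, Vsig4 with Folr2 as a pair were named after their values were seen. Alternatives were other background correction, scaling and filters, the deposited table, the methods' test with unequal variance, the block, each array left out, and Cd68 or Adgre1 as the reference level.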

Additional observations from a re-analysis of the deposited data

Results flagged for a closer look

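The 4 arrays of each diet were examined at the 14 Kupffer cell probes and the pan-macrophage level, 30 sets in all. In 5 of them, each at a Kupffer cell probe, 1 array stood far from the other 3, and chance flags about 1 in 20 such sets. ATH replicate 4 was far above the other ATH arrays for Vsig4 (2.56, with the others between 1.63 and 1.74) and for Folr2 (2.37, with the others between 1.39 and 1.48). STD replicate 2 was far below the other STD arrays for Cd163 (0.67, others 1.16 to 1.21), for the brighter Adgre1 probe (1.51, others 1.73 to 1.77) and for the second Csf1r probe (-0.88, others -0.16 to -0.07). The 5 values come from 2 livers and are therefore not independent.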

How the results depend on the processing

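Relative to the pan-macrophage level, 13 of the 14 probes had a negative difference, so fits against a macrophage reference are set apart. Under all other alternatives, the direction of 13 of the 14 Kupffer cell probes was the same as in the main fit. The exception was the dimmest Csf1r probe, which had 0.28 without scaling, 0.15 with spike-in scaling, and -0.31 to 0.05 when 1 array was left out (0.05 without STD replicate 3). Counts of calls moved more. Probes called by diet at 1% numbered 164 (60 higher), and 448 with normexp background correction, 488 without scaling (425 higher and 63 lower), 82 with spike-in scaling (53 higher and 29 lower), 37 without a filter on dim probes, 252 among probes detected on all 8 arrays, 0 by the methods' test with unequal variance, and 0 with the replicate block, with 5 to 1011 when 1 array was left out (5 without STD replicate 2 or 3 and 1011 without ATH replicate 2). The split was 72 higher and 83 lower with quantile normalization and 70 and 85 with median scaling. Unadjusted p under 0.05 was found for 9857 probes with the block (31.7%) and 7102 by the methods' test (22.9%).

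Of the Kupffer cell probes, the 1 called at 1% became 0 with quantile normalization, with spike-in scaling, without a filter, by the methods' test and with the replicate block (which called 2 at 5%, as without it), and 0 to 4 when 1 array was left out. At 5%, 2 became 8 with normexp (20.4% of all probes tested were called), 10 without scaling (23.7%), 7 with spike-in scaling (9.45%), 1 without a filter (2.64%), 5 among probes detected on all arrays (9.83%) and 0 by the methods' test, and 1 to 8 when 1 array was left out. The 8 were without ATH replicate 2 (Timd4, Cd5l, both Adgre1 probes, 1 Csf1r probe, Mertk and both Spic probes), where 12.8% of all detected probes were called. Of the 14, an unadjusted p under 0.05 was found for 5 by the methods' test and 12 with the block, beside the 22.9% and 31.7% of all probes above. Relative to the pan-macrophage level, 2 probes called lower at 1% became 1 when Adgre1 was the reference and 1 to 6 when 1 array was left out. The count at 5%, an alternative chosen after seeing the data together with the block in that fit, went from 3 to 6 with the block, 7 without ATH replicate 2, and 2 without ATH replicate 3 or with Adgre1 as the reference, where Clec4f did not pass. The causes were not tested. The block changed no other call of a Kupffer cell probe in the comparison by diet.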

Other observations

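Vsig4 and Folr2 had nearly the same profile over the 8 livers, a pair noticed after the values were seen. After centring each on its mean, their scaled log2 signals differed by a root mean square of 0.029. Each was the nearest of 16557 other detected genes to the other, and the next nearest was at 0.116 for both (Tspan15 for Vsig4 and Asap3 for Folr2). Clec4f came next to them within the 10 genes, at 0.200 from Vsig4 and 0.202 from Folr2, while Cd5l and Cd163 were the farthest apart (1.607). These are descriptions over 8 arrays that share the split by diet and slide.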
